A study of Mus musculus with 15 samples.

Results

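Levels of 10 circadian clock genes were followed across 15 samples of mouse skin, namely Arntl, Npas2, Clock, Per1, Per2, Per3, Nr1d1, Nr1d2, Dbp and Ciart. They are 10 of the 18929 genes in the deposited table, and they were chosen by their measured shift between healed wounds and normal skin, so that shift is described here without a test. Polyadenylated RNA of whole skin was sequenced in 5 groups of 3 samples. Full-thickness excisional wounds of 10 mm or 15 mm on the back of male balb/c mice aged 4 to 6 weeks were filled by bead-jet printing with Matrigel beads, a gel of basement membrane proteins. In the acellular groups the beads held no cells. In the HDB groups (high cell density beads) some of the beads carried human umbilical cord mesenchymal stem cells (MSCs), 84000 cells for a 10 mm wound and 180000 for a 15 mm wound, and the rest of the wound was filled with acellular beads. Normal skin was not wounded, and its strain and age are not given separately. All 15 samples carry the genotype WT, and the mice were kept under 12 h of light and 12 h of darkness. The methods name both 4 weeks of implantation and day 21 as the end of the skin experiment. Nothing says whether the 3 samples of a group came from 3 animals, so p-values measure only the spread between samples. Reads from the human cells could have been counted on mouse genes, and their part was not tested.

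The circadian clock is a feedback loop of transcription that runs in nearly every cell, skin included. CLOCK or NPAS2 pairs with ARNTL (also called BMAL1) and activates genes that carry E-boxes, among them the Per, Cry, Nr1d and Dbp genes, and the PER and CRY proteins then repress that pair. NR1D1 and NR1D2 (REV-ERB alpha and beta) repress Arntl, Npas2 and Clock through RORE sites, while DBP activates genes with D-boxes. These genes therefore peak at different hours of the day, with Arntl and Npas2 in near antiphase to Dbp, Per3 and Nr1d1. The hour at which skin was taken is not given in the sources used here, and each sample holds 1 time point. A change in the phase of the rhythm and a change in its amplitude or mean level cannot be told apart in these data, and neither can a difference in the hour of collection between groups.

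The start of 9 of the 10 genes, all but Per2, could be read as RefSeq promoter windows on GRCm38.p6. These run from 250 bases before to 50 bases after the start (13 windows, since some genes have more than 1 start). The windows of Ciart, Per1, Per3 and Arntl are shown because they hold the letters of the sites named above, on either strand. Capitals mark an E-box (CACGTG) in Ciart and Per1, the core of a RORE (AGGTCA, or TGACCT on the other strand) in Per1 and Arntl, and a D-box (TTANGTAA) in Per3. No marked site overlaps another. The windows are chr3:95882179-95882478 on the minus strand for Ciart, chr11:69098699-69098998 on the plus strand for Per1, chr4:151044616-151044915 on the minus strand for Per3 and chr7:113207261-113207560 on the plus strand for Arntl.
Ciart: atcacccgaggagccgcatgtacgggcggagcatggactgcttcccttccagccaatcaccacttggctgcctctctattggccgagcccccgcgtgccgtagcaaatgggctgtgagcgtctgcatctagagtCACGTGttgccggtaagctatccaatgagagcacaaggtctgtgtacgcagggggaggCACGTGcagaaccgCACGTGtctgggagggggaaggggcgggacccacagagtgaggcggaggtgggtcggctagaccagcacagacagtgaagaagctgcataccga
Per1: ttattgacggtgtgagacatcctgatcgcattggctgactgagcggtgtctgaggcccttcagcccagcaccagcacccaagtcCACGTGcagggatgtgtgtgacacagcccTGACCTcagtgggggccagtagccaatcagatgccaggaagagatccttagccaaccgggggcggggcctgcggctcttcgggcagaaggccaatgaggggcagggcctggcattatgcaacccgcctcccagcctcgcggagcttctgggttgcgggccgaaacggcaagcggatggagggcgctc
Per3: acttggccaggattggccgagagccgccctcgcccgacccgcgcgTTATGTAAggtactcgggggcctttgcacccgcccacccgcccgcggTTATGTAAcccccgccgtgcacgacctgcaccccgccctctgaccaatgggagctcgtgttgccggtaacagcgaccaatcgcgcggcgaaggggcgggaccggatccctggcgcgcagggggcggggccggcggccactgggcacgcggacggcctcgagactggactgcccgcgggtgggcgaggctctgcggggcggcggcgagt
Arntl: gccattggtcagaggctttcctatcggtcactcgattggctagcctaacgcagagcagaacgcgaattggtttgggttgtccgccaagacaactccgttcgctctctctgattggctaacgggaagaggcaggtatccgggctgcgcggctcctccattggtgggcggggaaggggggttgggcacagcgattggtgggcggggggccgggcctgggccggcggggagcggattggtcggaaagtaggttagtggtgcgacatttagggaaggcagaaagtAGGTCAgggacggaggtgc
The Ciart window held 3 E-boxes, which began 116, 58 and 44 bases before the start. In Per1 an E-box began 166 bases before the start and a RORE core 137 bases before it. Both D-boxes of Per3 read TTATGTAA and began 205 and 158 bases before the start. The RORE core of Arntl lay 31 bases after the start of its window. These are starts of RefSeq transcripts, and those shown for Arntl and Per1 are each 1 of 2 windows of the gene. They lie 29040 and 3841 bases inside the RefSeq gene span, which begins further upstream. For Ciart and Per3 the distance was 29 and 42 bases. Of 32851 windows of this length over all genes, 7.15% held CACGTG, 16.3% AGGTCA and 2.32% TTANGTAA. A related E-box, CACGTT, was in 4.68% of windows and, among the 9 genes read, in Nr1d1 alone, 28 bases before the start. RORE cores were also found in Clock and Nr1d2, 119 and 77 bases before the start. The cyclic AMP response element TGACGTCA was in 1.79% of windows and in no window of the 9 genes. For the RORE only the core letters were searched, without the bases beside them, so a match need not be a full site. All of these are matches of letters in short windows and do not show binding.

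All 10 genes passed the filter on low counts that kept 15369 genes for testing. Total counts were 15840551 to 18404188 per sample, and levels are given as CPM, counts scaled to a common library total. The smallest counts behind a level were 39 for Npas2, both in acellular 15 mm replicate 1 and in normal skin, and 43 for Per2 in HDB 10 mm replicate 2. Skin was recognisable in each of the 15 samples, with the basal keratinocyte keratin Krt5 at 2225 to 7963 CPM and the fibroblast collagen Col1a1 at 729.9 to 5915 CPM. A pair of samples stood apart. Acellular 10 mm replicate 1 was close to normal skin in the clock genes, with a mean absolute log2 distance of 0.535 to the mean of normal skin over the 10 genes, against 1.59 to 2.18 in the other 11 wound samples. Over all genes tested it was farther from normal skin than most wounds (correlation 0.887, against 0.878 to 0.966 for wound samples other than acellular 15 mm replicate 1). Acellular 15 mm replicate 1 was the farthest from normal skin over all genes (correlation 0.806), and its 16 hair shaft and inner root sheath markers summed to 25570 CPM, against at most 2011 CPM in any other sample. Differences from normal skin and comparisons among wounds that moved most without these samples are given both ways.

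Among the activators, Arntl (Entrez 11865, chr7:113178471-113314126, plus strand), the partner shared by CLOCK and NPAS2, was higher in all 12 wound samples than in any normal sample. Normal skin held 10.8, 10.3 and 12.9 CPM. Acellular wounds held 24.6, 52.7 and 56.6 CPM at 10 mm and 28.2, 59.8 and 43.8 CPM at 15 mm. HDB wounds held 50.7, 47.4 and 40.3 CPM at 10 mm and 49.8, 55.5 and 47.2 CPM at 15 mm. The lowest wound values were those of the acellular samples numbered 1, and the 10 other wounds lay between 40.3 and 59.8 CPM. The mean of the 4 wound groups was 2.03 above normal skin on the log2 scale. Npas2 (Entrez 18143, chr1:39193702-39363240, plus strand), which can take the place of CLOCK, was 3.51, 3.28 and 2.62 CPM in normal skin. It was 4.80, 13.4 and 15.4 CPM in acellular 10 mm wounds and 2.21, 13.5 and 13.8 CPM in acellular 15 mm wounds. In HDB wounds it was 13.6, 11.4 and 12.2 CPM at 10 mm and 10.9, 14.8 and 13.7 CPM at 15 mm. Thus 11 of 12 wounds were above normal skin and acellular 15 mm replicate 1 was below it, with a log2 difference of 1.88 over the 4 groups.

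Clock (Entrez 12753, chr5:76209868-76305603, minus strand) moved least of the activators. It was 69.9 ± 5.66 CPM in normal skin, 95.4 ± 11.3 and 86.6 ± 32.3 CPM in acellular wounds of 10 and 15 mm, and 104.8 ± 4.17 and 89.6 ± 16.7 CPM in the HDB wounds of those sizes (SD over 3 samples), a log2 difference of 0.43. The large SD of acellular 15 mm wounds came from 49.8 CPM in replicate 1, the only wound below normal skin. Per kilobase of the longest annotated transcript, the level of Clock was 7.97 to 12.6 times that of Npas2 in normal skin and 2.52 to 3.83 times in 10 of the wounds. In the acellular samples numbered 1 the ratio was 8.03 at 10 mm and 9.80 at 15 mm, inside the range of normal skin. These are ratios of RNA and not of protein. The split into those 10 wounds and the other 5 samples was drawn from the ratios themselves.

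Of the period genes, whose proteins repress the CLOCK:ARNTL pair, Per2 and Per3 were far below normal skin in nearly all wounds. Per2 (Entrez 18627, chr1:91415977-91459351, minus strand) was 94.3, 91.4 and 68.2 CPM in normal skin. It was 57.8, 3.43 and 5.85 CPM in acellular 10 mm wounds and 26.4, 9.16 and 8.55 CPM in acellular 15 mm wounds. HDB wounds held 6.04, 2.31 and 7.0 CPM at 10 mm and 7.03, 10.5 and 9.60 CPM at 15 mm. The groups did not overlap with normal skin, and the acellular samples numbered 1 held the most Per2 of any wound. The log2 difference over the 4 groups was -2.93, and -3.50 at the lowest when single samples were left out. Per3 (Entrez 18628, chr4:150997018-151044707, minus strand) was 105.3, 123 and 98.8 CPM in normal skin, 69.6 CPM in acellular 10 mm replicate 1 and 10.7 to 26.3 CPM in the other 11 wounds, a log2 difference of -2.39. Per1 (Entrez 18626, chr11:69095108-69109965, plus strand), which also responds quickly to hormones and stress signals, was 148.5, 98.4 and 95.2 CPM in normal skin and -1.52 on the log2 scale in wounds. Unlike the other period genes it stayed high in the whole acellular 10 mm group, at 87.1, 86.3 and 67.5 CPM, while the 9 other wounds held 26.0 to 39.7 CPM.

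**Figure D1:**
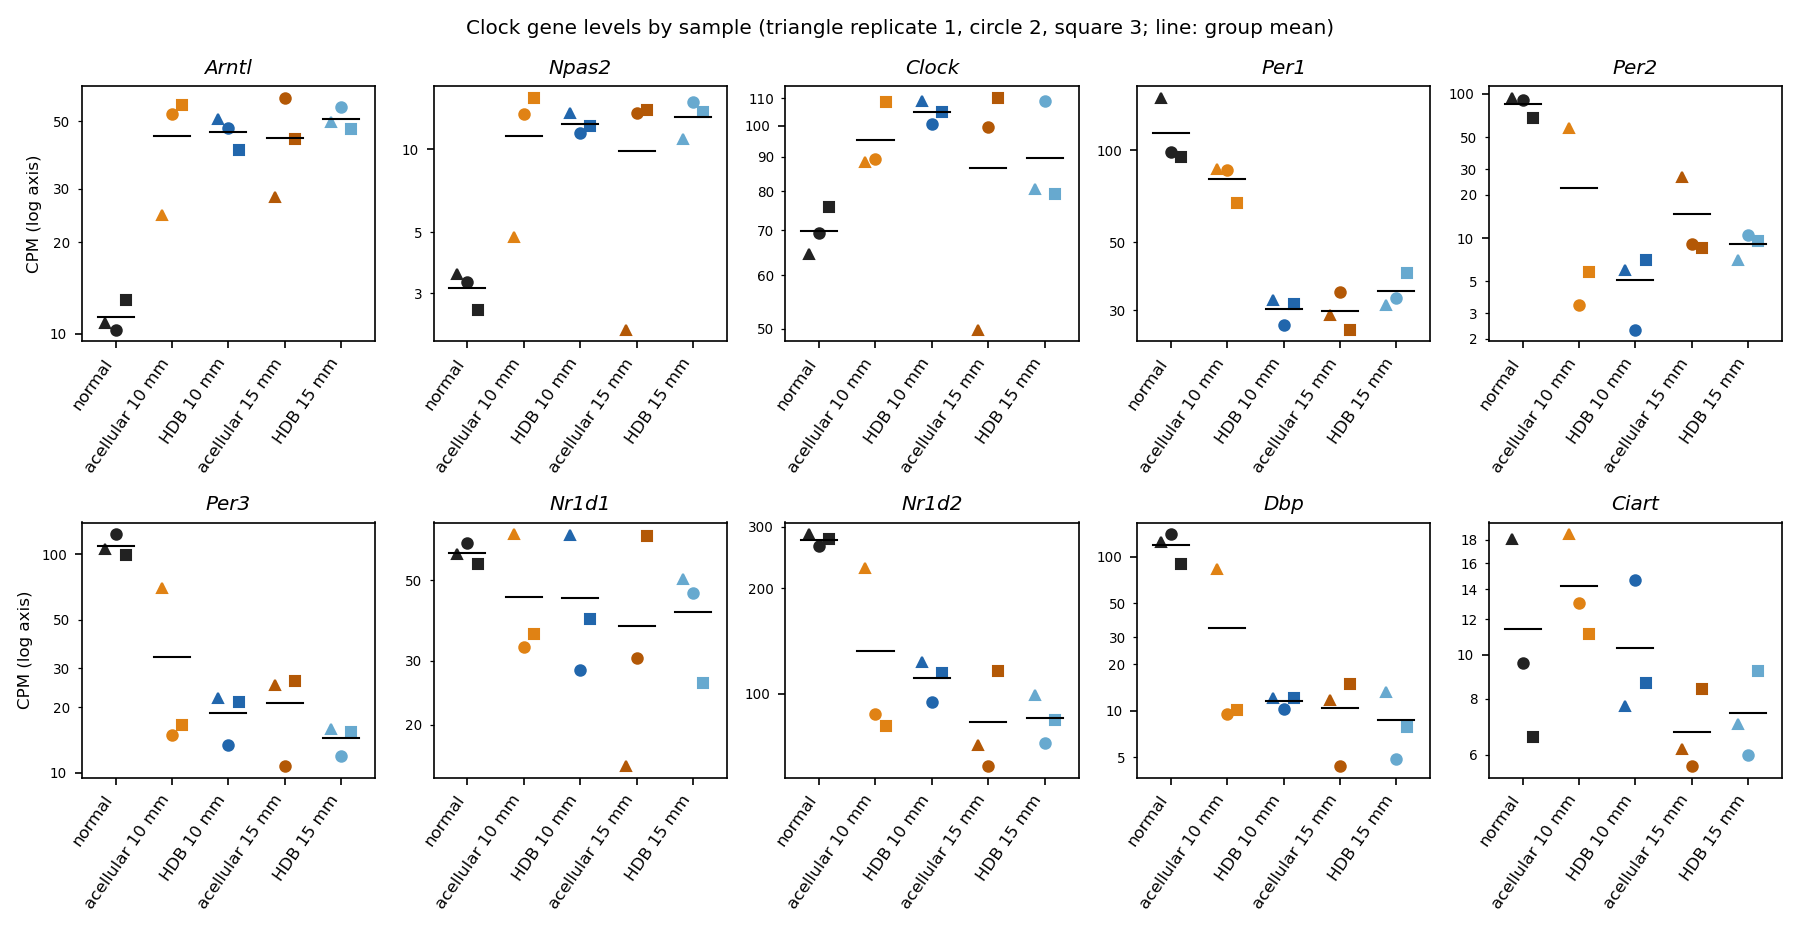
Level of each of the 10 clock genes in CPM on a log axis, 1 panel per gene, with each point 1 sample (triangle replicate 1, circle replicate 2, square replicate 3), colours for the 5 groups and a line at the group mean. All 12 wound points lie above normal skin for Arntl and below it for Per1, Per2, Per3, Nr1d2 and Dbp, and the triangle of acellular 10 mm lies nearest to normal skin in Per2, Per3, Nr1d2 and Dbp.

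Dbp (Entrez 13170, chr7:45705100-45710203, plus strand), a direct target of the CLOCK:ARNTL pair that activates D-box genes, differed by -3.10 on the log2 scale, the greatest of the 10 genes over the mean of the 4 wound groups, although Per2 was ahead without both acellular samples numbered 1 (-3.68 against -3.58). Within acellular 10 mm wounds it differed by -1.79, and by -3.58 without replicate 1, where Per2 had -1.92 and -4.19 and Arntl 1.98 and 2.27. Within HDB 10 mm wounds Per2 differed by -4.05 and Dbp by -3.36. Normal skin held 124.5, 139.9 and 90.1 CPM. Acellular wounds held 83.0, 9.55 and 10.2 CPM at 10 mm and 11.7, 4.38 and 15.0 CPM at 15 mm. HDB wounds held 12.2, 10.3 and 12.1 CPM at 10 mm and 13.3, 4.85 and 7.85 CPM at 15 mm. The 83.0 CPM of acellular 10 mm replicate 1 was close to the lowest normal sample, and the 11 other wounds held at most 15.0 CPM. The count of Arntl was 2.41 to 13.6 times that of Dbp in those 11 wounds, 0.296 times in acellular 10 mm replicate 1 and 0.0737 to 0.143 times in normal skin. Dbp shares 539 exon bases with Sphk2 on the opposite strand, which was 61.5 to 94.1 CPM in wounds and 58.9 to 68.6 CPM in normal skin. Whether counting used the strand is not given in the sources used here, so reads in the shared bases cannot be told apart.

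**Figure D2:**
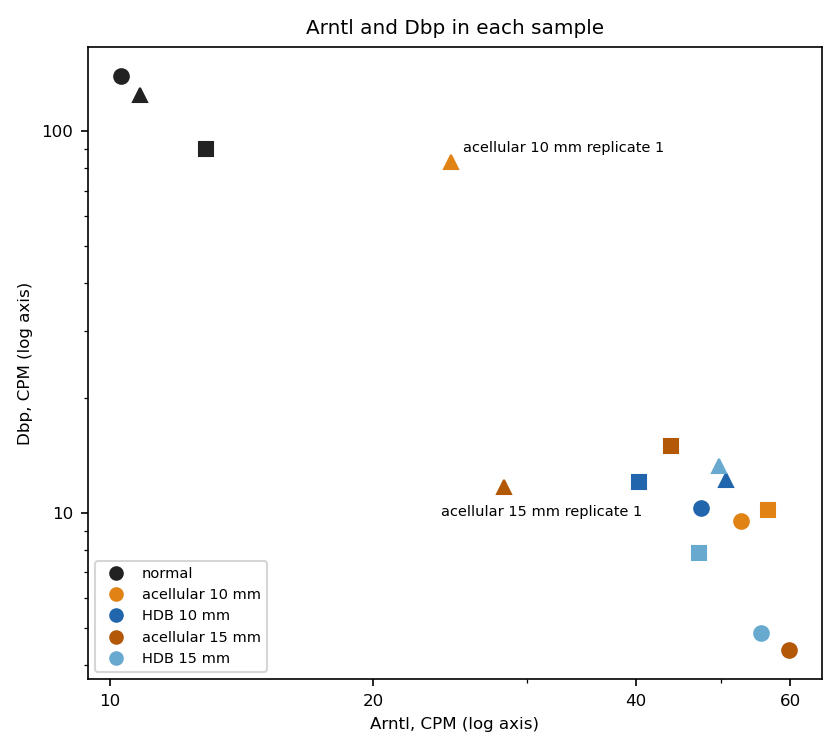
Arntl (x axis) against Dbp (y axis) in CPM, both axes logarithmic, with 1 point per sample, colours for the groups and shapes for the replicate numbers as in the plot of the 10 genes. Normal skin lies at the upper left (Arntl at most 12.9 CPM), 11 wounds lie at Dbp levels of 15.0 CPM or less, and acellular 10 mm replicate 1 lies between them at 24.6 CPM of Arntl and 83.0 CPM of Dbp.

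The REV-ERB genes differed from each other. Nr1d2 (Entrez 353187, chr14:18204056-18239106, minus strand) was 275 ± 11.2 CPM in normal skin (SD, n = 3), 228 CPM in acellular 10 mm replicate 1 and 62.2 to 123 CPM in the 11 other wounds, a log2 difference of -1.45. Nr1d1 (Entrez 217166, chr11:98767932-98775377, minus strand) was 59.1, 63.3 and 55.3 CPM in normal skin. Acellular wounds held 66.9, 32.7 and 35.5 CPM at 10 mm and 15.4, 30.6 and 66.0 CPM at 15 mm. HDB wounds held 66.4, 28.2 and 39.0 CPM at 10 mm and 50.4, 46.1 and 26.0 CPM at 15 mm. Its log2 difference was -0.50, with 3 wound samples above every normal sample and 9 below, so it did not separate wounds from normal skin as Nr1d2 did. Nr1d1 shares 263 exon bases with Thra on the opposite strand, which was 74.5 to 129 CPM in wounds and 124 to 127 CPM in normal skin. Ciart (Entrez 229599, chr3:95878500-95882257, minus strand), which encodes a repressor that binds ARNTL and is also known as CHRONO, overlapped with normal skin, where it ranged from 6.57 to 18.1 CPM. Its log2 difference was -0.30, and 0.20 without normal replicate 1.

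Compared by level per kilobase of transcript, Dbp at 67.8 CPM per kb and Nr1d2 at 59.4 CPM per kb led in the median of normal skin. Nr1d1 followed at 21.7, Per1 at 21.1, Per3 at 17.6 and Per2 at 15.7 CPM per kb. The activators and Ciart came last, with Clock at 7.13, Ciart at 4.94, Arntl at 3.64 and Npas2 at 0.775 CPM per kb. In the median of the 12 wounds Nr1d2 led at 19.5, but Arntl was next at 16.3, followed by Nr1d1 at 13.7 and Clock at 10.3 CPM per kb. Per1 was then at 7.02, Dbp at 6.0, Ciart at 4.40, Npas2 at 3.17, Per3 at 2.71 and Per2 at 1.34 CPM per kb. Arntl thus moved up the order to stand next to Nr1d2, and Dbp moved from the top to below Per1. Neighbours such as Nr1d1 and Per1 in normal skin differed by less than the spread of either gene.

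Over the 10 genes, 6 had wound samples that did not overlap with normal skin, where 21% of all genes tested did. The rule used this contrast and nothing is read from the count. It was 8 without acellular 15 mm replicate 1, a setting to which the 21% does not apply and whose share is not given. Without acellular 10 mm replicate 1 the log2 difference of the 4 wound groups became -3.50 for Per2, -3.55 for Dbp, -2.66 for Per3 and -1.61 for Nr1d2. In acellular 10 mm wounds alone Per3 went from -1.70 to -2.79, Nr1d2 from -1.06 to -1.71 and Nr1d1 from -0.39 to -0.79 when that sample was left out. Group by group, 8 of 10 did not overlap with normal skin in acellular wounds of 10 mm (56.3% of all genes) and 6 in those of 15 mm (44.0%), while 8 did not in HDB wounds of 10 mm (49.1%) and 9 in those of 15 mm (46.4%). These comparisons share the normal samples. Whole skin mixes many cell types, and fewer cells of a type and less RNA per cell cannot be told apart. Normal skin held 61820 to 75730 CPM of 14 skeletal muscle markers against 857 to 46780 CPM in wounds, 599 to 695 CPM of 8 endothelial markers against 108 to 456 CPM, and 95.9 to 118 CPM of 8 proliferation markers against 268 to 1590 CPM. The 10 epidermal markers summed to 9409 to 11350 CPM in normal skin and 8841 to 22780 CPM in wounds. The 16 hair shaft and inner root sheath markers summed to 12.5 to 16.4 CPM in normal skin and 28.1 to 25570 CPM in wounds. All of these muscle, endothelial, proliferation and epidermal markers were detected in every group, whereas 7 hair markers were at 0 in normal skin. The part of these cell types in the clock gene differences was not tested.

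Genes of the clock outside the selection were then compared with normal skin, to see how far the shift extended. This list held 23 further genes, 23 of which were tested, and it was written with earlier results of these data known. Under acellular beads 1 was called higher and 5 lower at 10 mm, and 1 and 9 at 15 mm. Under HDB 1 was called higher and 8 lower at 10 mm, and 0 and 9 at 15 mm (edgeR's quasi-likelihood test, adjusted p under 0.05 over all genes). Of all genes tested, 9.77%, 17.6%, 6.10% and 2.67% were called higher in these groups, taken in that order, and 10.6%, 12.6%, 6.23% and 2.51% lower. The median log2 fold changes of the 23 genes were -0.14, -0.27, -0.18 and -0.34, against 0.028, 0.059, 0.022 and 0.019 over all genes. The total of 6 calls in acellular 10 mm was 3 without acellular replicate 2, acellular replicate 3, normal replicate 1 or normal replicate 3. The total of 9 in HDB 10 mm fell to between 1 and 5 without HDB replicate 2, HDB replicate 3 or any normal sample, and the 9 in HDB 15 mm to between 1 and 3 without HDB replicate 1, HDB replicate 3 or any normal sample. Over all genes the share called moved as well, to 5.80% to 11.9%, 0.501% to 3.86% and 0.218% to 0.861% in these settings. These comparisons share their normal samples and are not independent of each other.

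Both D-box activators related to Dbp were among the genes that fell. Tef was 517, 501.5 and 477 CPM in normal skin, 309 CPM in acellular 10 mm replicate 1 and 73.2 to 149 CPM in the other wounds. Its log2 fold changes were -1.56 (SE 0.405) and -2.32 (SE 0.415) under acellular beads at 10 and 15 mm and -2.19 (SE 0.413) and -2.41 (SE 0.417) under HDB, and it was called in each of these (edgeR adjusted p = 0.0216, 0.00448, 0.0133 and 0.0172). Hlf was 60.7, 67.1 and 54.0 CPM in normal skin, 56.6 CPM in acellular 10 mm replicate 1 and 10.9 to 27.1 CPM in the other wounds. It was called lower in acellular 15 mm, HDB 10 mm and HDB 15 mm wounds (adjusted p = 0.0175, 0.0402 and 0.0309 from edgeR) and had a log2 fold change of -0.96 with an adjusted p of 0.106 in acellular 10 mm. Without replicate 1 of that group Hlf was called there too (log2 fold change -1.71, adjusted p = 0.0233 from edgeR). Nfil3, the repressor that competes at D-boxes, was called in no group, with log2 fold changes of -0.18 to 0.75, but was called higher in acellular 15 mm without replicate 3 (0.97, edgeR adjusted p = 0.00561). The 3 D-box activators, Dbp included, were thus all nearest to normal skin in acellular 10 mm replicate 1.

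Of the cryptochromes, Cry2 was called lower in all 4 groups (log2 fold changes -1.42 to -1.71, adjusted p = 0.00217 to 0.00688 from edgeR), from 78.5 to 89.7 CPM in normal skin to 19.9 to 42.4 CPM in wounds. Cry1 was not called in any group, with log2 fold changes of -0.47 to -1.20, but was called lower in acellular 15 mm without replicate 1 (-1.02, edgeR adjusted p = 0.0381). Usp2, a clock-controlled ubiquitin protease, was also called lower in all 4 groups (log2 fold changes -2.06 to -2.34, adjusted p = 0.00474 to 0.0258 from edgeR). The E-box repressor Bhlhe40, the cell cycle kinase gene Wee1 and the ubiquitin ligase subunit gene Btrc were each called lower in 3 groups. Arntl2, the paralog of Arntl, was called higher in both 10 mm groups, with log2 fold changes of 1.16 and 1.30 (adjusted p = 0.0268 and 0.0269 from edgeR). Of these genes Cry2 kept its calls whichever sample was left out. Tef, Hlf, Usp2, Wee1, Bhlhe40, Btrc and Arntl2 each lost a call in at least 1 group when a single sample was left out, with the sign of the fold change kept. Arntl2 lost that of acellular 10 mm without any 1 of the 6 samples compared (adjusted p = 0.0559 to 0.101 from edgeR) and was called in acellular 15 mm without replicate 1 (0.94, adjusted p = 0.00946 from edgeR). Not all of these genes were close to normal skin in acellular 10 mm replicate 1, since Usp2 was 16.4 CPM there, against at least 81.3 CPM in normal skin.

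**Figure D3:**
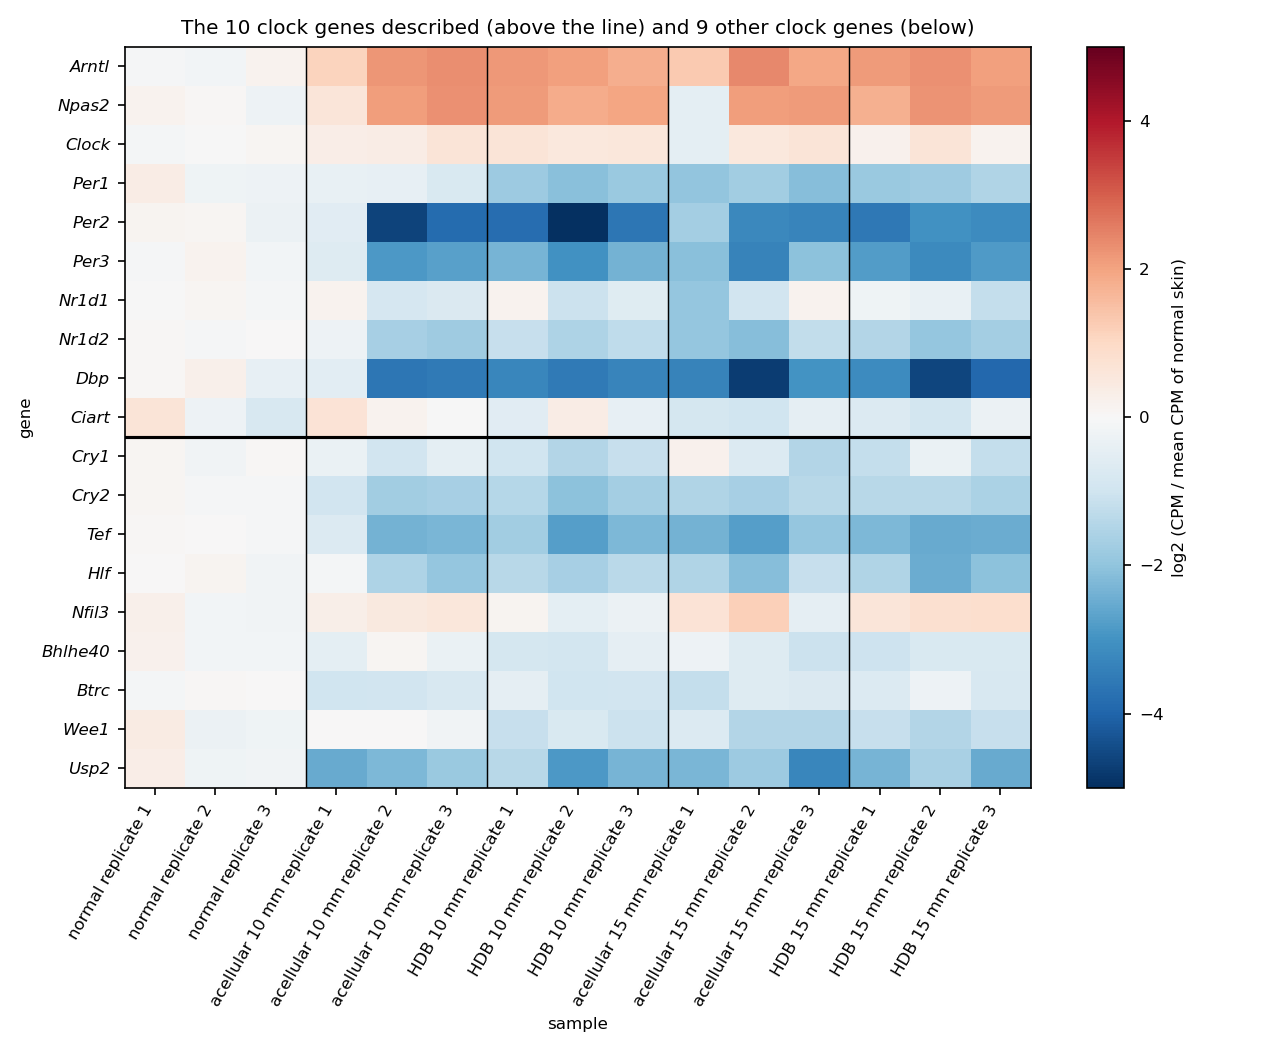
Heat map of the log2 ratio of CPM to the mean CPM of normal skin, with the 10 selected genes above the line and 9 other clock genes below it (y axis) in the 15 samples (x axis, in groups parted by lines), red higher and blue lower. Arntl and Npas2 are red and Per2, Per3, Nr1d2, Dbp, Cry2, Tef, Hlf and Usp2 blue in nearly all wounds, while acellular 10 mm replicate 1 is pale in Per2, Per3, Nr1d2, Dbp and Hlf.

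The differences among wounds did not enter the rule that chose the genes and were tested, although the contrast of Per1 in 10 mm wounds was known from earlier results of these data. They asked whether MSC-laden beads or the size of the wound altered clock gene levels. In 15 mm wounds 0 of the 10 genes were called between HDB and acellular skin, where 2.93% of all genes were called, and 0 had an unadjusted p under 0.05, where 23.2% of all genes did. The share of all genes called there fell to 0% without any 1 of the HDB 15 mm samples or with only the groups compared, was 0.979% without acellular 15 mm replicate 1 and 1.16% when replicate numbers entered as a block, and was 14.9% without acellular 15 mm replicate 3, with 0 of the 10 genes called in each of these settings. Log2 fold changes were -0.70 (Per2) to 0.41 (Npas2), with standard errors of 0.184 to 0.834, and no gene separated the groups, as 20.3% of all genes did. In 10 mm wounds 0 of 10 were called (0% of all genes), 2 had an unadjusted p under 0.05 (3.53% of all genes) and 1 separated the groups (11% of all genes). The count of 2 became 4 without acellular 10 mm replicate 2 or replicate 3 (5.37% and 4.09% of all genes), and 1 without acellular 10 mm replicate 1 or HDB 10 mm replicate 1 or 2 (1.45%, 3.51% and 6.16%). Over both sizes 0 were called (0% of all genes) and 2 had an unadjusted p under 0.05 (15.8% of all genes). There the count was 4 without acellular 10 mm replicate 2 or 3 (18.1% and 11.3% of all genes), 3 without acellular 15 mm replicate 2 (18.7%), and 1 (9.94% to 14.9%) without any 1 of acellular 10 mm replicate 1, acellular 15 mm replicate 1, HDB 10 mm replicate 2 and the HDB 15 mm samples. For the difference of the treatment effect between sizes 0 were called (0% of all genes) and 1 had an unadjusted p under 0.05 (13.4% of all genes). DESeq2 called 1 of the 10 genes, Per1, in HDB against acellular wounds at 10 mm (0.0799% of all genes by DESeq2), over both sizes (1.19%) and in the difference between sizes (3.24%), and 0 at 15 mm (9.54%). It gave no p for Per2 in any comparison among wounds and so tested 9 of the 10 genes.

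Per1 gave the clearest difference among wounds. In 10 mm wounds it was 32.5, 26.8 and 31.5 CPM with HDB and 87.1, 86.3 and 67.5 CPM with acellular beads. The groups did not overlap, and HDB skin was 2.65-fold lower (log2 fold change -1.41, SE 0.187, unadjusted p = 5.44e-06, edgeR adjusted p = 0.0836). The exact two-sided permutation test gave p = 0.1, the smallest that 3 samples against 3 allow. In 15 mm wounds the order was not repeated, since HDB skin held 34.7 ± 4.43 CPM against 29.8 ± 4.25 CPM (SD over 3 samples) under acellular beads, 0.22 more on the log2 scale (SE 0.184, edgeR adjusted p = 0.496). The treatment effect differed between sizes by 1.63 on the log2 scale (SE 0.262, unadjusted p = 3.74e-05, adjusted p = 0.118 from edgeR). When acellular 10 mm replicate 1 was left out, Per1 in 10 mm wounds stood at -1.35 (edgeR adjusted p = 0.581) and the difference between sizes 1.56 (adjusted p = 0.253 from edgeR). DESeq2 gave adjusted p = 1.37e-07 at 10 mm and 6.5e-05 for the difference, and over the settings tried the adjusted p ranged from 1.37e-07 to 0.763 and from 6.5e-05 to 0.359. Over both sizes the log2 fold change was -0.59 (SE 0.130, edgeR adjusted p = 0.261, 0.0138 to 0.629 over the settings), and -0.64 with an adjusted p of 0.0486 without acellular 15 mm replicate 3.

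The acellular 10 mm group was also higher in Per1 than the acellular 15 mm group, a comparison that uses the same 10 mm samples. Acellular 15 mm wounds held 29.1, 34.4 and 26.0 CPM, 2.69-fold lower (log2 fold change -1.43, SE 0.187, unadjusted p = 4.63e-06, adjusted p = 0.0712 from edgeR), with no overlap (exact two-sided permutation p = 0.1). Leaving out acellular 15 mm replicate 3 gave -1.34 with an edgeR adjusted p of 0.0256, DESeq2 gave an adjusted p of 3.7e-08, and the range over the settings was 3.7e-08 to 0.551. The 3 acellular 10 mm samples also had the highest sums of 19 immediate-early genes, which respond within minutes to stimuli, at 2183, 2237 and 4538 CPM, against 1019 to 1541 CPM in other wounds and 1118 to 1433 CPM in normal skin. Among these genes Fos was 248, 186 and 775 CPM there and at most 105.4 CPM elsewhere. The 11 glucocorticoid-responsive genes, Per1 not among them, summed to 1548 to 1800 CPM in acellular 10 mm, 834.6 to 1475 CPM in other wounds and 1599 to 3002 CPM in normal skin. Within the acellular 10 mm group the sample with the most immediate-early RNA, replicate 3, had the least Per1. Markers of dermal fibroblasts also separated the 10 mm groups, as 10 of them summed to 3780 to 5883 CPM in acellular and 9670 to 12760 CPM in HDB wounds, and 10 adipocyte markers separated the acellular groups, at 650.7 to 1217 CPM in 10 mm and 1762 to 5267 CPM in 15 mm wounds. The part of immediate-early and glucocorticoid responses and of these cell types in the level of Per1 was not tested.

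**Figure D4:**
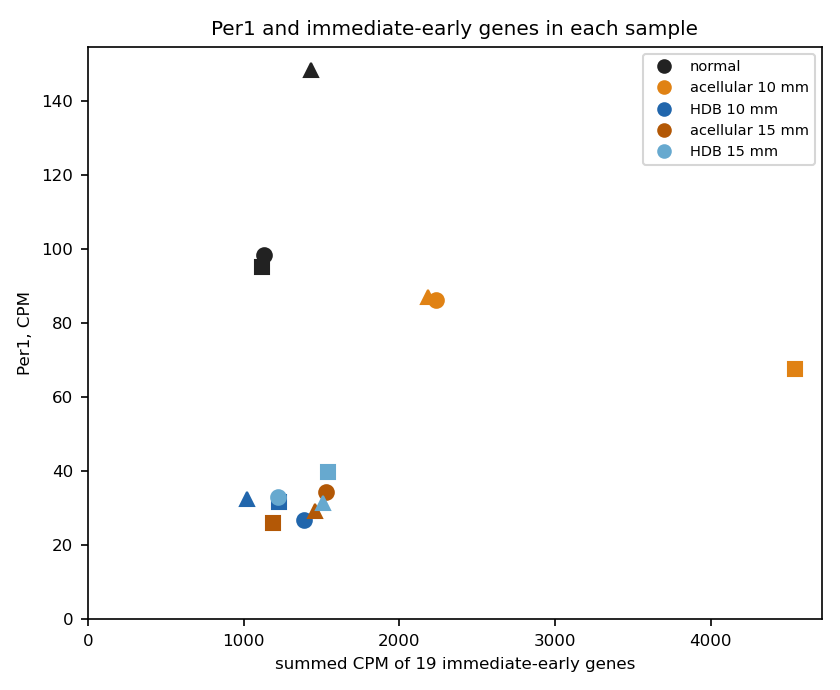
Per1 in CPM (y axis) against the summed CPM of 19 immediate-early genes (x axis), both axes linear from 0, with 1 point per sample, colours for the groups and shapes for the replicate numbers. The 3 acellular 10 mm samples lie at 67.5 CPM of Per1 or more and at 2183 CPM of immediate-early genes or more, the 9 other wounds lie together at lower left, and normal skin is high in Per1 alone.

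The differences of Per2 and Dbp between HDB and acellular wounds turned on single samples. Per2 was lower in HDB than in acellular 10 mm wounds (log2 fold change -2.13, SE 0.867, unadjusted p = 0.0297, adjusted p = 1 from edgeR), but 0.14 without acellular 10 mm replicate 1. Over both sizes its log2 fold change was -1.41 (SE 0.600, unadjusted p = 0.0354, adjusted p = 0.290 from edgeR), -0.28 without that sample and 0.085 without both acellular samples numbered 1. Dbp differed by -1.57 in HDB against acellular 10 mm wounds (SE 0.729, unadjusted p = 0.0518, adjusted p = 1 from edgeR) and 0.23 without the same sample. In that setting the 10 mm log2 fold changes of the 9 genes other than Per1 lay between -0.25 and 0.39.

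Between wound sizes under acellular beads 0 of 10 genes were called (0% of all genes), 3 had an unadjusted p under 0.05 (17.5% of all genes) and 2 separated the groups (16.5% of all genes). The count of 3 became 5 without acellular 15 mm replicate 3 (24.1% of all genes), 4 without acellular 10 mm replicate 2 or 3 (11.4% and 15.1%), and 2 without acellular 10 mm replicate 1 or acellular 15 mm replicate 1 or 2 (13%, 21.8% and 18.9%). DESeq2 called 1, again Per1, where it called 3.88% of all genes. All 10 log2 fold changes were below 0, with a median of -0.64 against 0.064 over all genes, and without acellular 10 mm replicate 1 they ranged from -1.37 (Per1) to 1.66 (Per2). Ciart was 18.6, 13.0 and 11.1 CPM at 10 mm and 6.18, 5.66 and 8.39 CPM at 15 mm, which did not overlap (log2 fold change -1.08, SE 0.372, unadjusted p = 0.0131, adjusted p = 0.193 from edgeR, exact two-sided permutation p = 0.1). Without acellular 10 mm replicate 1 its log2 fold change was -0.84. Dbp had -1.72 (SE 0.733, unadjusted p = 0.0362, adjusted p = 0.258 from edgeR) and 0.074 without that sample. Under HDB 0 of 10 were called by edgeR (0% of all genes), 0 of the 9 with a p were called by DESeq2 (2.03% of all genes), 0 had an unadjusted p under 0.05 (12.3% of all genes) and 1 separated the groups (22.9% of all genes). This was Per2, at 6.04, 2.31 and 7.0 CPM in 10 mm and 7.03, 10.5 and 9.60 CPM in 15 mm wounds, a log2 fold change of 0.82 (SE 0.852, adjusted p = 0.754 from edgeR).

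**Figure D5:**
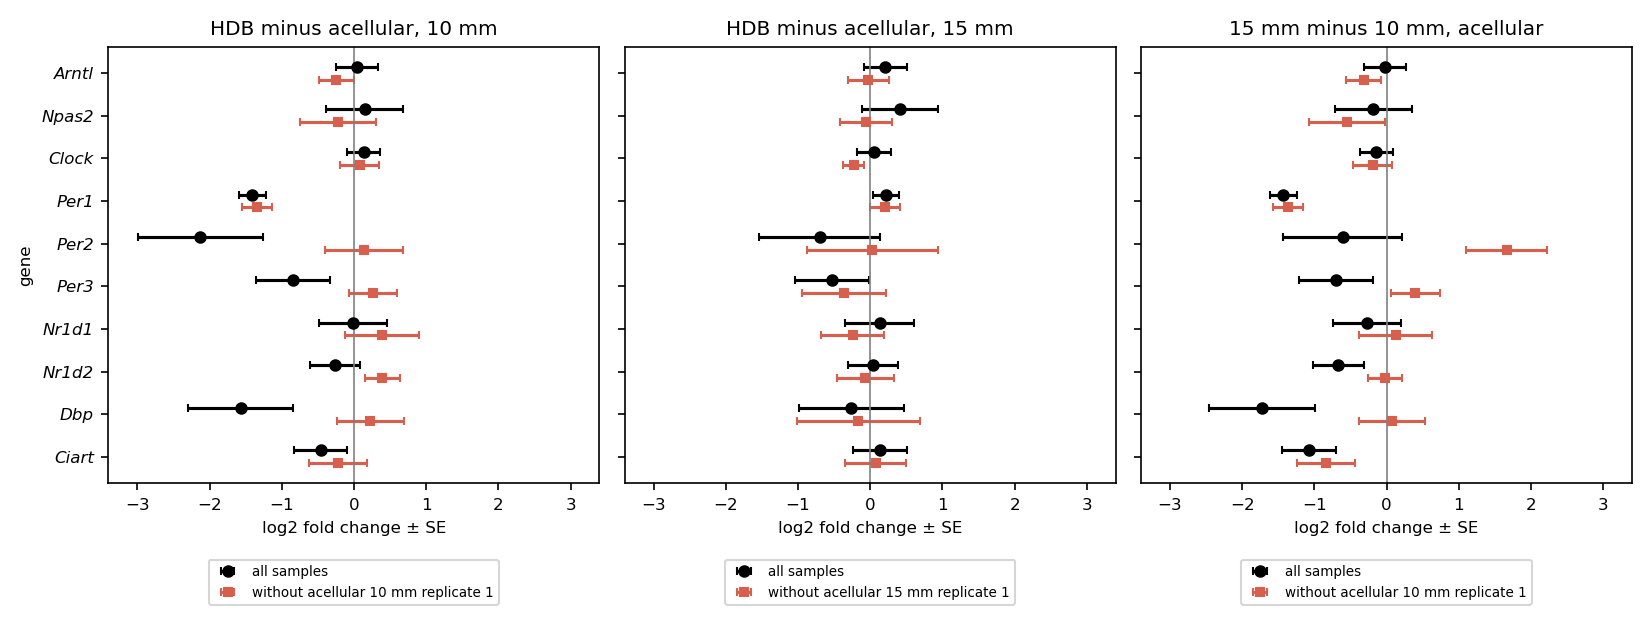
Log2 fold change with its standard error (x axis) for each of the 10 genes (y axis) between HDB and acellular wounds at 10 mm and at 15 mm and between the sizes under acellular beads, with all samples (black circles) and without the acellular sample numbered 1 named under the panel (red squares). Per1 keeps its place at -1.41 and -1.35 at 10 mm, whereas Per2 moves from -2.13 to 0.14 and Dbp from -1.57 to 0.23.

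Finally, the 10 genes were compared with each other over the 12 wound samples, in 45 pairs. Of these, 7 passed an adjusted p of 0.05 for Pearson's r on log2 CPM (permutation test with 100000 resamples, two-sided, adjusted over the 45 pairs), and 2 of the 45 passed for Spearman's rho. Per3 and Dbp rose and fell together (r = 0.944, permutation p = 3e-05, adjusted p = 0.00135), also by rank (rho = 0.853, permutation p = 0.00074, adjusted p = 0.0259). Nr1d2 and Dbp did so as well (r = 0.920, permutation p = 0.00016, adjusted p = 0.0036), again by rank (rho = 0.839, permutation p = 0.00115, adjusted p = 0.0259). The other 5 pairs did not pass by rank. Per3 and Nr1d2 had r = 0.858 (permutation p = 0.00245, adjusted p = 0.022) and rho = 0.636 (permutation p = 0.0307, adjusted p = 0.173). Arntl ran opposite to Per3 by Pearson's r (r = -0.865, permutation p = 0.00036, adjusted p = 0.0054), with rho = -0.734 (permutation p = 0.00865, adjusted p = 0.0973). It also ran opposite to Dbp (r = -0.785, permutation p = 0.0021, adjusted p = 0.022), with rho = -0.678 (permutation p = 0.0187, adjusted p = 0.161). At the very edge of the threshold, with an adjusted p of 0.04995 each, were Arntl with Npas2 (r = 0.861, permutation p = 0.00769) and Arntl with Per2 (r = -0.768, permutation p = 0.00777). Their rho was 0.601 (permutation p = 0.0428, adjusted p = 0.214) and -0.406 (permutation p = 0.196, adjusted p = 0.587). Without the 2 samples farthest from the median of the first gene of each pair, r was 0.783, 0.656, 0.505 and 0.457 for the positive pairs in this order, and -0.695, -0.676 and 0.083 for the negative ones, and 0 of the 45 pairs passed. With deviations from group means 10 pairs passed. Those deviations are tied within each group, yet were permuted freely over all 12 wounds, so this count cannot be set against the 7. Without acellular 10 mm replicate 1, Per3 and Dbp still passed (r = 0.817, permutation p = 0.00154, adjusted p = 0.0347), and of the others only Per2 and Ciart did (r = -0.807, permutation p = 0.00149, adjusted p = 0.0347). The other 6 relations lost their calls, with r = 0.772 for Nr1d2 and Dbp (adjusted p = 0.0559) and r = -0.719 for Arntl and Per3 and 0.866 for Arntl and Npas2 (adjusted p = 0.0591 each), close to the threshold in this permutation test, and r = 0.598 for Per3 and Nr1d2 (adjusted p = 0.229), -0.513 for Arntl and Dbp and -0.542 for Arntl and Per2 (adjusted p = 0.3245 each).

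Over all 15 samples the genes most like Dbp among the other 13532 compared were Hlf (Pearson's r = 0.980) and Tef (0.969), with Cry2 the fourth (0.894). This description reads the wounds and normal skin together. Over the 12 wounds Hlf (0.957) and Tef (0.908) again came first, and over the 11 wounds without acellular 10 mm replicate 1 Hlf was first (0.900) and Tef rank 33 (0.659). For Arntl the most opposite genes over 15 samples were Cry2 (-0.931) and Tef (-0.930) and the most like was Adamts4 (0.941), but none of these were among the 5 most like or most opposite genes over the 12 wounds.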

How the data were processed

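The authors deposited expected counts per gene for 15 skin libraries. The submitters' processing notes name HISAT2 2.0.4, Bowtie2 2.2.5, RSEM 1.2.12 and GRCm38.p6, without their roles. The counts, rounded to whole numbers, were scaled by TMM (trimmed mean of M values) and fitted over all 5 groups with edgeR 4.0.16 in R 4.3.3 (quasi-likelihood test, Benjamini-Hochberg adjustment, threshold 0.05) after filterByExpr kept 15369 of 18929 genes. Log2 CPM used a prior count of 2. A gene separated 2 groups where no sample of one lay within the range of the other. Correlations and exact tests used Python 3.11.15 with scipy 1.17.1. Scripts were tested on simulated data. Gene positions come from a RefSeq gene annotation. Strands, shared exon bases and transcript lengths come from GENCODE on GRCm38.

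The members and lists were chosen with earlier results of these data known. All 10 members were named, and other clock genes where they were called in at least 3 groups or are Cry1, Cry2, Tef, Hlf or Nfil3, except for an item that is not reported here. Arntl2, Krt5, Col1a1, Fos, Thra and Sphk2 were added after their values were seen.

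Whether equal replicate numbers mark pairs was checked by the correlation of deviations from group means. These were 0.397, 0.167 and 0.183 between acellular and HDB 15 mm samples, the only pair of groups with every value over 0.1. There 0 clock genes were called with or without the replicate block. Alternatives were DESeq2 1.42.0, RLE size factors, no filter, a mean count of at least 50, the block, only the groups compared and leaving out each sample. Leaving out both acellular samples numbered 1, and the relations without acellular 10 mm replicate 1, were chosen after seeing the data.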

Additional observations from a re-analysis of the deposited data

How the results depend on the processing

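DESeq2 called 1 of the 10 genes (Per1) in HDB against acellular wounds at 10 mm, over both sizes, in the difference between sizes and between sizes under acellular beads, where edgeR called 0. When each sample was left out in turn, the number of the 10 genes called over both sizes and between sizes under acellular beads ranged from 0 to 1, with 1 without acellular 15 mm replicate 3 (1.47% and 3.38% of all genes), and was 0 in the other comparisons among wounds. The number of other clock genes called against normal skin ranged from 3 to 4 in acellular 10 mm, 7 to 14 in acellular 15 mm, 1 to 7 in HDB 10 mm and 1 to 8 in HDB 15 mm, where the share of all genes called ranged from 5.14% to 11.9%, 14.8% to 37.3%, 0.501% to 17.5% and 0.218% to 8.61%. With only the groups compared it was 10 in acellular 10 mm (42% of all genes), 5 in acellular 15 mm (6.57%) and 14 in HDB 15 mm (22.9%). With the replicate number as a block it was 5 in HDB 15 mm against normal skin (1.54% of all genes), and the block moved no other count of clock genes called by over 1.5 times. Of the correlations between the 10 genes, where 7 had passed, 2 passed by rank, 0 without the 2 farthest samples and 2 without acellular 10 mm replicate 1. With deviations from group means 10 passed, in a permutation that ignored the ties within groups. Log2 fold changes with an unadjusted p under 0.05, or of wounds against normal skin, that turned were Per2 in HDB against acellular 10 mm wounds (-2.64 to 0.14 over the samples left out, and 0.14 without both acellular samples numbered 1), Per2 over both sizes (0.085 without both), Dbp between sizes under acellular beads (-2.17 to 0.074) and Ciart in wounds against normal skin (-0.57 to 0.20). Others turned without acellular 10 mm replicate 1, among them Per3 (-0.84 to 0.26) and Dbp (-1.57 to 0.23) in HDB against acellular 10 mm wounds and Per2 (-0.61 to 1.66) between sizes under acellular beads. The causes were not tested. With 3 samples a group, exact tests within a size cannot go below p = 0.1, nor those over both sizes below 0.005. The hour of collection is not given, so these levels are single points of a daily rhythm.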
